A study of Mus musculus with 24 samples.

Results

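The developmental pluripotency-associated (Dppa) genes Dppa2, Dppa3, Dppa4 and Dppa5a were 4 of the 19938 genes measured in a study of Eed loss in mouse embryonic stem cells (ESCs). They were found by gene symbol among probe sets that the platform annotation gives a single symbol. Where a gene had several of the 7 probe sets, it was represented by the probe set chosen by its mean over the 24 arrays, the highest being taken. These were probe set 10463138 for Dppa2 (mean 11.40, against 8.86 for the other), 10541515 for Dppa3 (8.02 against 7.55), 10486954 for Dppa4 (9.29 against 9.13) and 10595156, the sole probe set of Dppa5a (12.21). The genes themselves were selected with earlier results of these arrays known, so their levels and differences are given as descriptions of these arrays. All 4 were measured on every array, and no filter on low values was applied.

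RNA was measured on Affymetrix Mouse Gene 1.0 ST arrays, and the values are log2 RMA expression values, so that a difference of 1 is a 2-fold difference. Knockout (KO) of Eed was studied in clones of E14 and J1, and wild-type (WT) clones were of J1 and V6.5, each sampled as undifferentiated ESCs on day 0 and as embryoid bodies on days 3 and 7, with 2 arrays for each line and day. ESCs grew with LIF, which keeps them undifferentiated, on inactivated embryonic fibroblasts, and embryoid bodies formed in hanging drops without LIF from cells depleted of those fibroblasts. The labels name 1 clone per line and genotype, do not describe the Eed allele, and do not say whether separate cultures stand behind the 2 arrays of a line and day. The p-values therefore measure how far these arrays spread, which may be technical.

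The EED protein belongs to the core of Polycomb repressive complex 2, which places the repressive mark H3K27me3 on chromatin. The Dppa genes are transcribed in pluripotent and germ cells and are silent in most differentiated cells, and despite their shared name they do not all belong to 1 protein family. DPPA2 and DPPA4 are related SAP-domain proteins that bind DNA together and prepare developmental promoters and 2-cell-stage genes for activation. DPPA3, also called Stella or PGC7, is a maternal factor that protects DNA methylation in the zygote and marks primordial germ cells. DPPA5A, also called ESG1, is a KH-domain protein that binds RNA and is a classical ESC marker.

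Eed was at 5.76 to 7.48 on the 12 arrays labelled KO and at 9.37 to 11.02 on the 12 labelled WT, without overlap. The 6 ESC markers (Pou5f1, Nanog, Sox2, Zfp42, Esrrb and Klf4) had a mean of 11.45 to 11.89 on the day 0 KO arrays and of 11.12 to 11.56 on the day 0 WT arrays. Replicate arrays had an r of 0.990 or more over all genes, but for WT J1 on day 7 it was 0.962, and 1256 genes were at least 2-fold apart there (21 to 163 in the other pairs). The median of an array lay between 6.96 and 7.14.

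Dppa2, Dppa4 and Dppa5a showed a similar course. They were high on all day 0 arrays, fell by day 7 in WT embryoid bodies of both lines, and on every day 7 KO array lay above every day 7 WT array. Dppa3 also fell in WT and was higher in KO on day 7, but it set the KO clones E14 and J1 apart and a larger share of its WT log2 decrease to day 7 lay before day 3. In WT, 4 of 4 genes fell between day 0 and day 7, by 2.65 to 3.97 on the log2 scale, and 3.89% of all genes were called lower in that comparison. In KO, 0 of 4 were called between day 0 and day 7, against 2.47% of all genes called in either direction. A call needed a difference of at least 2-fold and a p under 0.05 after Benjamini-Hochberg adjustment for the 19938 genes. The verbs rose and fell, and the words higher and lower between groups, are kept for calls, and all adjusted p-values and standard errors (SE) of differences are from limma. In these bulk samples, fewer cells that express a gene and less RNA per cell cannot be told apart.

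**Figure D1:**
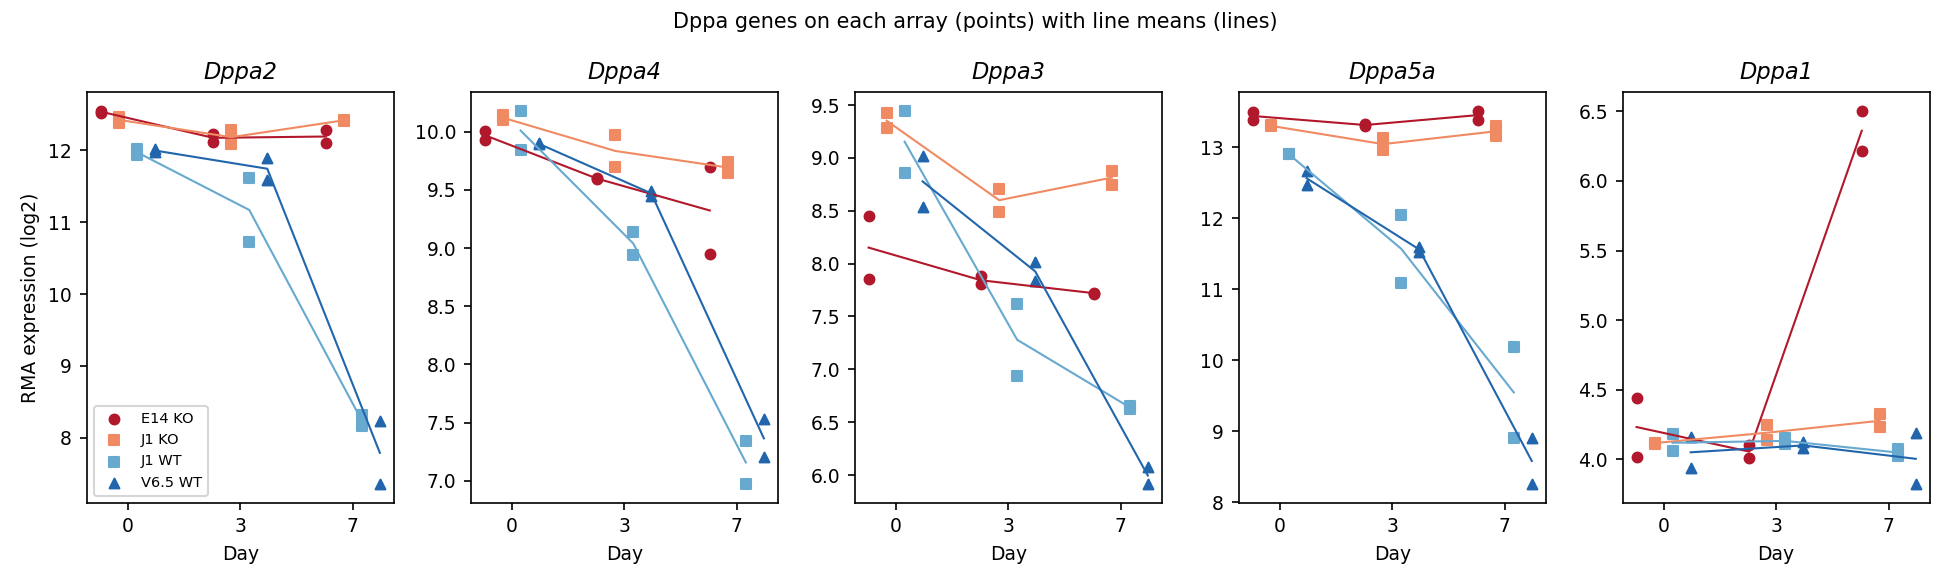
RMA expression (log2) of Dppa2, Dppa3, Dppa4 and Dppa5a on each of the 24 arrays (points) by day, with the means of the 2 arrays of each clone joined by lines; the last panel shows Dppa1. For the 4 former genes the day 7 KO arrays lie above the day 7 WT arrays; for Dppa3 the KO clone E14 runs below the KO clone J1.

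Dppa2 was measured at 12.55 and 12.53 in E14 KO and at 12.38 and 12.47 in J1 KO on day 0. On day 0 the WT values were 12.02 and 11.93 in J1 and, in V6.5, 11.97 and 12.02. The genotypes did not overlap on day 0, although all 8 arrays lay within a narrow band. On day 3 Dppa2 was at 12.23 and 12.11 in E14 KO and at 12.08 and 12.28 in J1 KO. The day 3 WT values were 11.62 and 10.72 in J1 and, in V6.5, 11.59 and 11.90, so that the genotypes did not overlap and 1 WT J1 array lay well below the other WT arrays. On day 7 Dppa2 was at 12.28 and 12.10 in E14 KO and at 12.43 and 12.41 in J1 KO. The day 7 WT values were 8.16 and 8.32 in J1 and, in V6.5, 7.36 and 8.23. The lowest KO array on day 7 was still above every WT array of any day.

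The mean of Dppa2 in KO was 12.48 ± 0.07 on day 0, 12.18 ± 0.09 on day 3 and 12.30 ± 0.15 on day 7 (SD, n = 4 arrays). The WT means were 11.99 ± 0.04, 11.46 ± 0.51 and 8.02 ± 0.44. From high to low the groups ran KO day 0, KO day 7, KO day 3, WT day 0, WT day 3 and WT day 7, where neighbouring KO groups overlapped and no later pair did. Dppa2 fell by 3.97 between day 0 and day 7 in WT (SE 0.187, adjusted p = 1.9e-13), a 15.7-fold decrease. Nearly all of that fall came after day 3: the change was -0.53 by day 3 (adjusted p = 0.071, not called) and a fall by 3.44 from day 3 to day 7 (adjusted p = 2.3e-12). In KO the difference between day 7 and day 0 was -0.18, with a 95% interval from -0.56 to 0.21. Dppa2 was 19.6-fold higher in KO than in WT on day 7 (4.29, SE 0.220, adjusted p = 3.1e-12).

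Dppa4, whose protein partners DPPA2 and whose gene lies next to Dppa2, overlapped between the genotypes on day 0. On day 0 it was at 9.93 and 10.01 in E14 KO, 10.10 and 10.14 in J1 KO, 10.18 and 9.84 in J1 WT, and 9.90 and 9.89 in V6.5 WT. No clone stood apart on day 0, and KO minus WT was 0.09 (95% interval -0.26 to 0.45). On day 3 it was at 9.60 and 9.59 in E14 KO, 9.70 and 9.97 in J1 KO, 9.14 and 8.94 in J1 WT, and 9.45 and 9.49 in V6.5 WT. The day 3 genotypes did not overlap, but the difference of 0.46 was not called (adjusted p = 0.21). On day 7 Dppa4 was at 9.70 and 8.95 in E14 KO and at 9.64 and 9.74 in J1 KO. The day 7 WT values were 6.97 and 7.34 in J1 and, in V6.5, 7.53 and 7.20. E14 KO replicate 2 lay apart from the other KO arrays on day 7 and was still above all 4 WT arrays.

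The Dppa4 means in KO were 10.05 ± 0.09, 9.71 ± 0.18 and 9.51 ± 0.38 on days 0, 3 and 7 (SD, n = 4), and those in WT were 9.95 ± 0.15, 9.25 ± 0.26 and 7.26 ± 0.23. In the order of the 6 groups, each overlapped its neighbour except WT day 3 and WT day 7. In WT the day 3 minus day 0 difference was -0.70 (adjusted p = 0.0020), which is under 2-fold and so not called. From day 3 to day 7 Dppa4 fell by 1.99 (adjusted p = 4.9e-10). Over the whole course it fell by 2.69 (SE 0.146, adjusted p = 2.0e-12), a 6.46-fold decrease. Among the 4 genes Dppa4 alone had an adjusted p under the threshold in KO between day 0 and day 7, with a difference of -0.54 (95% interval -0.84 to -0.24, adjusted p = 0.012), again under 2-fold. On day 7 it was 4.74-fold higher in KO than in WT (2.25, SE 0.172, adjusted p = 2.9e-09).

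Dppa5a was at 13.38 and 13.50 in E14 KO, 13.31 and 13.29 in J1 KO, 12.91 and 12.90 in J1 WT, and 12.66 and 12.46 in V6.5 WT on day 0. All 4 KO arrays lay above all 4 WT arrays, but the mean difference of 0.64 was not called (95% interval 0.07 to 1.20, adjusted p = 0.31). On day 3 it was at 13.32 and 13.30 in E14 KO, 12.96 and 13.13 in J1 KO, 12.05 and 11.09 in J1 WT, and 11.59 and 11.53 in V6.5 WT. The day 3 values did not overlap between genotypes either. On day 7 Dppa5a was at 13.51 and 13.39 in E14 KO and at 13.16 and 13.29 in J1 KO. The day 7 WT values were 8.90 and 10.19 in J1 and, in V6.5, 8.25 and 8.91. The WT arrays spread more widely than the KO arrays, and the highest of them was from WT J1, whose 2 day 7 arrays were also the least alike over all genes.

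The KO means of Dppa5a were 13.37 ± 0.09, 13.18 ± 0.17 and 13.34 ± 0.15 on days 0, 3 and 7 (SD, n = 4). The WT means were 12.73 ± 0.21, 11.56 ± 0.39 and 9.06 ± 0.81. The order of the groups was that of Dppa2, with the KO groups overlapping and every later neighbour apart. Dppa5a fell in WT by 1.17 by day 3 (adjusted p = 0.0013) and by a further 2.50 by day 7 (adjusted p = 2.2e-08), a 12.7-fold decrease in all (3.67, SE 0.233, adjusted p = 2.8e-11). In KO the day 7 minus day 0 difference was -0.03 (95% interval -0.51 to 0.45). Dppa5a was 3.06-fold higher in KO than in WT on day 3 (1.61, SE 0.274, adjusted p = 0.0018) and 19.3-fold higher on day 7 (4.27, adjusted p = 1.7e-10). The day 3 fall was -0.96, under 2-fold, without WT J1 day 3 replicate 2, and the day 3 difference between genotypes was not called without the E14 KO clone (adjusted p = 0.13).

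Dppa3 varied between the clones of a genotype. On day 0 it was at 7.86 and 8.45 in E14 KO, 9.42 and 9.28 in J1 KO, 8.86 and 9.45 in J1 WT, and 8.54 and 9.02 in V6.5 WT. The genotypes overlapped on day 0, with E14 KO lowest. On day 3 it was at 7.81 and 7.88 in E14 KO, 8.49 and 8.71 in J1 KO, 7.62 and 6.94 in J1 WT, and 8.02 and 7.83 in V6.5 WT. E14 KO and V6.5 WT overlapped on day 3, and J1 KO lay above all others. On day 7 it was at 7.72 and 7.72 in E14 KO, 8.88 and 8.75 in J1 KO, 6.63 and 6.65 in J1 WT, and 5.91 and 6.08 in V6.5 WT. Day 7 was the only day on which the genotypes did not overlap.

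The Dppa3 means in KO were 8.75 ± 0.74, 8.22 ± 0.45 and 8.27 ± 0.63 on days 0, 3 and 7 (SD, n = 4), and those in WT were 8.97 ± 0.38, 7.60 ± 0.47 and 6.32 ± 0.38. WT day 0 headed the order of the 6 groups, and each group overlapped its neighbour except WT day 3 and WT day 7. Dppa3 fell in WT by 1.36 by day 3 (SE 0.271, adjusted p = 0.0013) and by 1.29 from day 3 to day 7 (adjusted p = 7.3e-04), a 6.27-fold decrease in all (2.65, adjusted p = 4.3e-08). The day 3 fall was -0.85 and not called without the WT J1 clone (adjusted p = 0.24), and the fall after day 3 was -0.64 and not called without the WT V6.5 clone (adjusted p = 0.43). In KO the day 7 minus day 0 difference was -0.48 (95% interval -1.05 to 0.08). On day 7 Dppa3 was 3.86-fold higher in KO than in WT (1.95, SE 0.319, adjusted p = 1.3e-04).

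Between genotypes, 0 of the 4 genes were called on day 0, where 0.552% of all genes were called in either direction. On day 3, 1 of 4 (Dppa5a) was higher in KO, where 0.667% of all genes were called higher. On day 7, 4 of 4 were higher in KO, where 3.08% of all genes were called higher. The median over all genes was -0.03, 0.00 and -0.04 on days 0, 3 and 7. The day 3 differences that were not called were 0.72 for Dppa2 (95% interval 0.27 to 1.18, adjusted p = 0.097), 0.62 for Dppa3 (-0.04 to 1.28, adjusted p = 0.44) and 0.46 for Dppa4 (0.11 to 0.82). Their intervals do not show that the genotypes were alike on day 3.

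**Figure D2:**
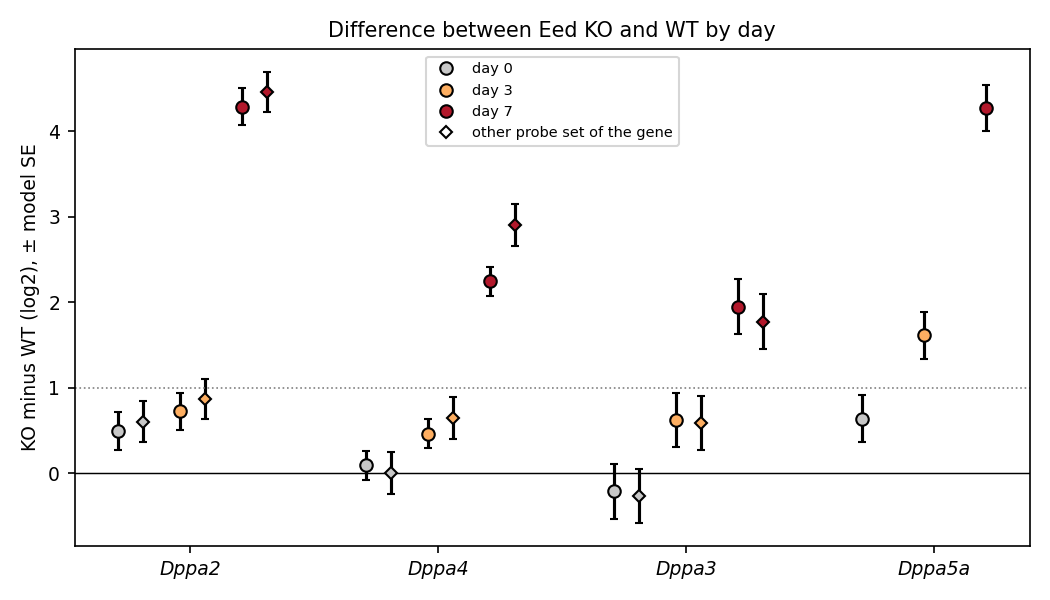
Difference between Eed KO and WT (log2) for each gene on days 0, 3 and 7 as circles with the model's SE, and for the other probe set of Dppa2, Dppa3 and Dppa4 as diamonds; the dotted line marks 2-fold. Dppa2 and Dppa5a reach 4.29 and 4.27 on day 7, and Dppa4 and Dppa3 reach 2.25 and 1.95.

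In WT, 2 of the 4 genes (Dppa3 and Dppa5a) fell by day 3, where 1.08% of all genes were called lower, and 4 of 4 fell between day 3 and day 7, where 2.45% were. In KO, 0 of 4 were called by day 3 (1.17% of all genes called) or between day 3 and day 7 (2% called). The KO differences from day 0 to day 3 were -0.30 for Dppa2, -0.53 for Dppa3, -0.33 for Dppa4 and -0.19 for Dppa5a. Those from day 3 to day 7 were 0.13, 0.05, -0.21 and 0.16 in the same order, so that none of the 4 was over 0.21 below its day 3 level.

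For 4 of 4 genes the genotypes differed in how far the level moved from day 0 to day 7, where 1.93% of all genes were called with a change in KO above that in WT. The change in KO minus that in WT was 3.80 for Dppa2 (SE 0.265, adjusted p = 1.5e-09), 3.64 for Dppa5a (SE 0.330, adjusted p = 1.5e-07), 2.16 for Dppa3 (SE 0.383, adjusted p = 7.9e-04) and 2.15 for Dppa4 (SE 0.206, adjusted p = 4.1e-07). For Dppa3 it was not called without the WT V6.5 clone (adjusted p = 0.063). For the corresponding interaction on day 3, 0 of 4 genes were called and 0.0502% of all genes were. The comparisons of KO with WT on day 7, of WT over time and of the changes share the WT day 7 arrays, so they are not separate evidence.

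**Figure D3:**
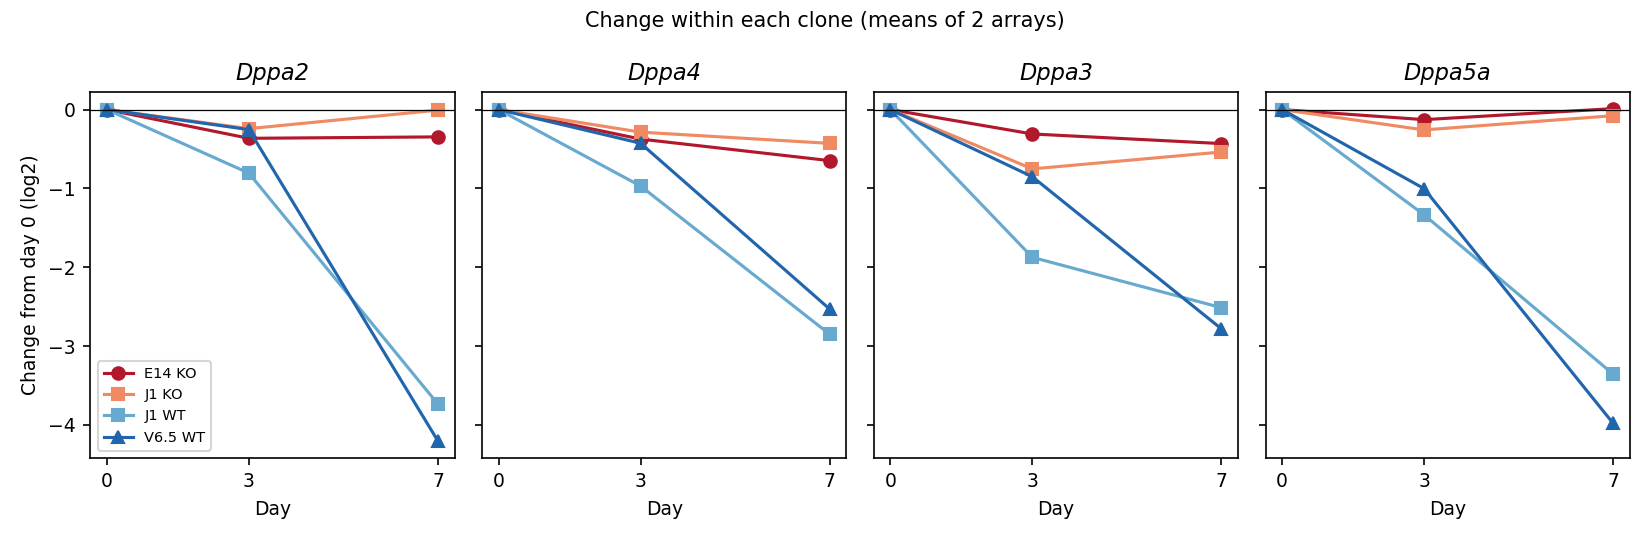
Change from day 0 (log2) within each of the 4 clones, from means of 2 arrays, on days 3 and 7. Both WT clones end 2.51 to 4.21 below their day 0 level for all 4 genes, and both KO clones end within 0.65 of theirs.

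The 2 WT clones differed in how early the genes declined. In WT J1 the change of Dppa2 by day 3 was 21.6% of its whole log2 decrease to day 7, and in WT V6.5 it was 6.04%. For Dppa4 these shares were 34.0% and 16.9%, and for Dppa5a 39.7% and 25.2%. Dppa3 had the largest shares, 74.6% in WT J1 and 30.6% in WT V6.5. For each gene the share was larger in J1 than in V6.5, and in each clone it was smallest for Dppa2 and largest for Dppa3. Each share rests on means of 2 arrays, and 1 of the day 3 WT J1 arrays was the lowest of its day for all 4 genes. These differences in timing were not tested.

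Line J1 was measured in both genotypes, which removes the line from the comparison. On day 0, J1 KO minus J1 WT was 0.45 for Dppa2, 0.20 for Dppa3, 0.11 for Dppa4 and 0.40 for Dppa5a, with 0 of 4 called against 0.456% of all genes. On day 3, 3 of 4 were higher in J1 KO, where 0.742% of all genes were called higher. These were Dppa2 at 1.01 (SE 0.242, adjusted p = 0.030), Dppa3 at 1.32 (SE 0.228, adjusted p = 0.0035) and Dppa5a at 1.47 (SE 0.310, adjusted p = 0.014), while Dppa4 at 0.79 was under 2-fold (adjusted p = 0.037). The 3 calls rested on WT J1 replicate 2: without it the differences were 0.57 for Dppa2 (adjusted p = 0.55), 0.98 for Dppa3 (adjusted p = 0.12) and 1.00 for Dppa5a (adjusted p = 0.32). Without J1 KO replicate 2 none of the 3 was called (adjusted p = 0.27, 0.082 and 0.17), and without J1 KO replicate 1 Dppa2 and Dppa5a were not (adjusted p = 0.086 and 0.059). The other Dppa4 probe set gave 1.13 on day 3 (SE 0.238, adjusted p = 0.015) and was called. With quantile normalization Dppa2 was at 0.95 on day 3, under 2-fold and so not called. On day 7, 4 of 4 were higher in J1 KO, where 2.91% of all genes were. The day 7 differences were 4.18 for Dppa2 (adjusted p = 3.7e-09), 2.17 for Dppa3 (adjusted p = 4.0e-06), 2.53 for Dppa4 (adjusted p = 1.2e-07) and 3.68 for Dppa5a (adjusted p = 3.5e-07).

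Between the KO clones, 1 of the 4 genes was called, Dppa3, and it was lower in E14. E14 KO minus J1 KO was -1.20 on day 0 (adjusted p = 0.013) and -1.09 on day 7 (adjusted p = 0.012), with 0.145% and 0.256% of all genes called lower. On day 3 it was -0.76 and not called (adjusted p = 0.22, 0.0451% of all genes called). Each of these calls rests on 2 arrays against 2. The day 0 call was lost without E14 KO replicate 1 (-0.91, adjusted p = 0.16), J1 KO replicate 1 (adjusted p = 0.10) or J1 KO replicate 2 (adjusted p = 0.0998), and the day 7 call was lost without any 1 of its 4 arrays (adjusted p from 0.065 to 0.098). The line, the clone and its history cannot be told apart here. Between the WT clones V6.5 and J1, 0 of 4 genes were called on day 0, 3 or 7, where 0.953%, 0.637% and 0.993% of all genes were. The widest of those WT differences was -0.97 for Dppa5a on day 7 (adjusted p = 0.090), which was -1.61 and called without WT J1 replicate 1 (adjusted p = 7.3e-04). On day 3 Dppa2 was called without WT J1 replicate 1, at 1.02 (adjusted p = 0.032).

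Dppa2, Dppa3 and Dppa4 had another probe set, which was not used above. KO minus WT on day 7 was 4.46 for the other Dppa2 probe set (SE 0.236), 2.91 for that of Dppa4 (SE 0.244) and 1.77 for that of Dppa3 (SE 0.319). The WT change from day 0 to day 7 was -4.13, -3.38 and -2.40 in the same order, and the KO change was -0.28, -0.48 and -0.36. The other Dppa4 probe set thus gave a larger fall than the one chosen. Processed pseudogenes of Dppa genes are known in the mouse genome, and which copy each probe set reads is not given in the sources used here.

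Dppa1, the only other gene measured whose symbol starts with Dppa, behaved otherwise. It lay between 3.82 and 4.44 on 22 arrays and averaged 6.36 on the E14 KO day 7 arrays, which were 0.29 apart, while J1 KO on day 7 was at 4.32 and 4.23. E14 KO minus J1 KO on day 7 was 2.08 (SE 0.153, adjusted p = 3.9e-07), against 0.742% of all genes called higher. Its KO minus WT difference on day 7 of 1.29 (SE 0.345, adjusted p = 0.011) therefore came from 1 clone, as did its rise in KO between day 0 and day 7 (1.14, adjusted p = 0.0084). The values on the other 22 arrays were under the lower quartile of every array (5.53 to 5.73), where RMA compresses differences. The sizes given for Dppa1 may therefore be underestimates, which was not tested.

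The genes next to Dppa2, Dppa3, Dppa4 and Dppa5a were taken from the order of genes in a RefSeq table (assembly GRCm38.p6), 5 measured genes on either side, which gave 30 genes other than the 4. On day 7, 6 of the 30 were higher in KO and 0 were lower, against 3.08% of all genes called higher. Their median difference was 0.14, and that of all genes -0.04. Beside Dppa2 and Dppa4 on chromosome 16 only Morc1, a germline ATPase that silences transposons, was called, and it adjoins Dppa2. Beside Dppa3 on chromosome 6 the called genes were the 2 immediate neighbours, Gdf3, which encodes a TGF-beta family ligand, and Nanog, the pluripotency transcription factor. Beside Dppa5a on chromosome 9 they were Ooep, which encodes an oocyte KH-domain protein and adjoins Dppa5a, the RNA helicase gene Ddx43 next to it, and Gsta4, a glutathione transferase gene on the other side.

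Morc1 was at 9.67 ± 0.21 in KO and 9.16 ± 0.62 in WT on day 0 and at 8.93 ± 0.24 and 5.60 ± 0.34 on day 7 (SD, n = 4), and KO minus WT on day 7 was 3.33. Gdf3 was at 11.08 ± 0.13 and 10.99 ± 0.21 on day 0 and at 10.43 ± 0.31 and 7.19 ± 0.26 on day 7, a difference of 3.24. Nanog was at 12.39 ± 0.48 and 11.93 ± 0.25 on day 0 and at 12.33 ± 0.44 and 8.77 ± 0.73 on day 7, a difference of 3.56. Ooep was at 10.19 ± 0.21 and 9.92 ± 0.20 on day 0 and at 10.04 ± 0.38 and 7.38 ± 0.35 on day 7, a difference of 2.67. Like the Dppa genes, these neighbours were high in both genotypes on day 0. They are described because they were called on day 7, so their separation on that day follows from how they were picked. On day 3 the KO and WT means were 8.35 and 6.79 for Morc1 and 10.87 and 9.86 for Gdf3. They were 12.03 and 11.25 for Nanog and 9.26 and 8.49 for Ooep. By day 3 Morc1 had moved further from day 0 than Dppa2 in both genotypes, and Ooep further than Dppa5a. Gdf3 and Nanog had moved less far than Dppa3. These differences in course were not tested. The day 7 differences of Ddx43 and Gsta4 were 1.90 and 1.36. Among genes further out, 3 that did not pass the test on day 7 were Nectin3 beyond Dppa4 (-0.02), Trat1 beyond Morc1 (-0.04) and Slc2a3 beyond Nanog (0.15). Other neighbours that were not called lay further apart, in either direction. The day 7 means in KO and WT were 5.82 and 7.12 for C3ar1 and 10.16 and 9.31 for Necap1. All of these examples were picked after their values were seen.

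**Figure D4:**
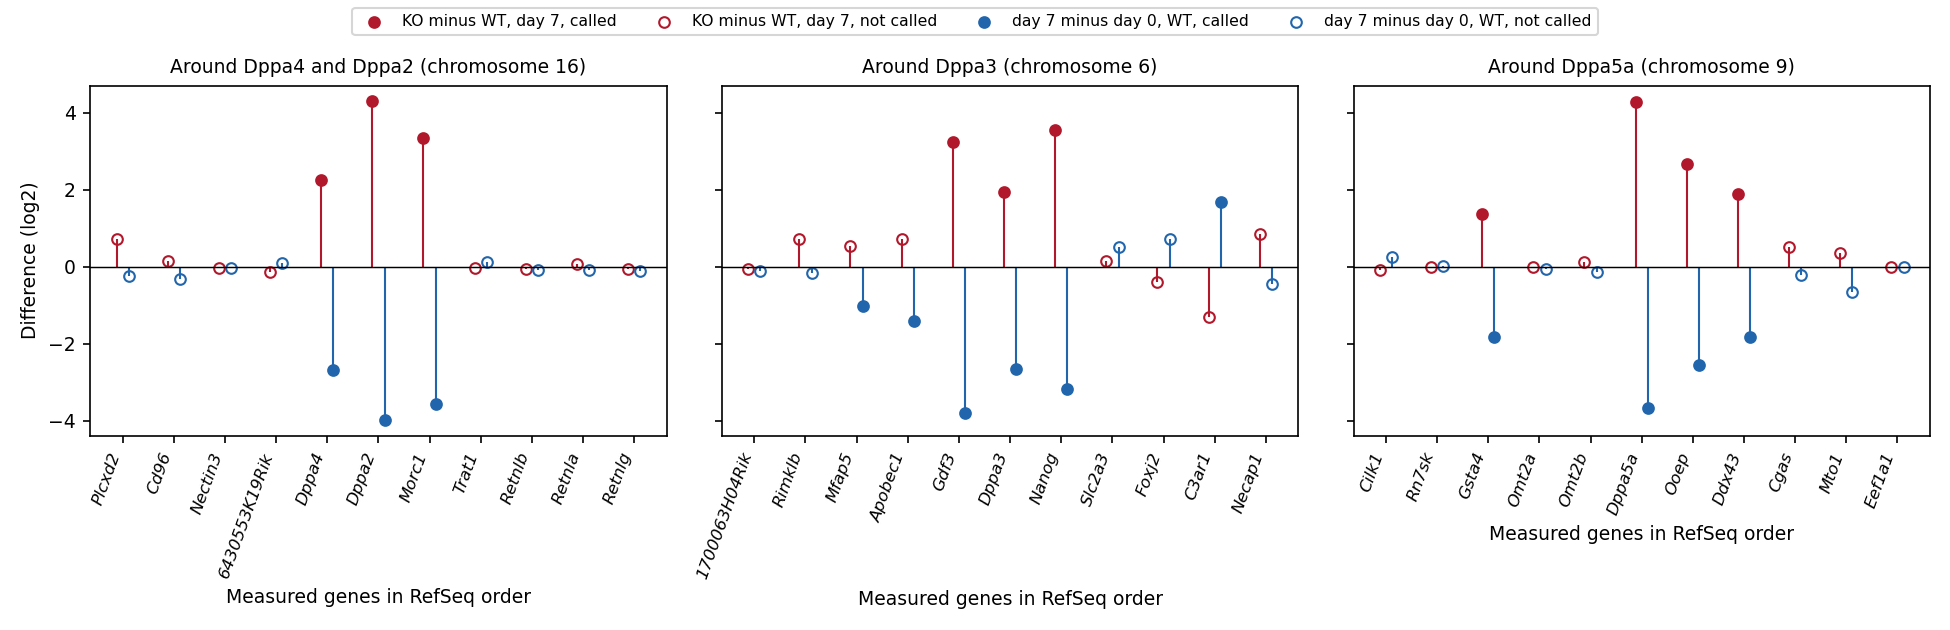
Difference (log2) of Dppa2, Dppa3 and Dppa5a and of the 5 measured genes on either side of each (Dppa4 among those of Dppa2), in RefSeq order, for KO minus WT on day 7 and WT day 7 minus day 0; filled points were called. The immediate neighbours called on day 7 were Morc1 (3.33), Gdf3 (3.24), Nanog (3.56) and Ooep (2.67).

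On day 3, 3 of the 30 neighbours were higher in KO (Morc1 at 1.56, Ddx43 at 1.19 and Gdf3 at 1.01), against 0.667% of all genes, and on day 0 only Mfap5, at 1.04, was, against 0.461%. In WT between day 0 and day 7, 8 of the 30 fell and 2 rose, against 3.89% and 5.09% of all genes. The 8 were the 6 genes called on day 7 together with Apobec1 and Mfap5, and those that rose were C3ar1 and Phldb2. In KO 1 of 30 rose (Phldb2) and 1 fell (Mfap5), against 2.05% and 0.421% of all genes. The neighbours were not used to choose the Dppa genes, but genes of the same loci are not independent of them.

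The promoters of 2 of these neighbours, Ooep and Nanog, are shown with their CpG sites in capitals. Polycomb complexes are known to gather at CpG-rich promoters. Each is the 250 bases before the gene's start, 5′ to 3′ on the gene's strand, from RefSeq on GRCm38.p6, and of the genes looked up the table held Nanog, Ooep, Ddx43 and Dppa1 and not Dppa2, Dppa3, Dppa4, Dppa5a, Morc1 and Gdf3. For Nanog it held 2 starts, of which 1 is shown. Ooep lies on the minus strand at chr9:78378589-78378838 and Nanog on the plus strand at chr6:122707239-122707488.
Ooep: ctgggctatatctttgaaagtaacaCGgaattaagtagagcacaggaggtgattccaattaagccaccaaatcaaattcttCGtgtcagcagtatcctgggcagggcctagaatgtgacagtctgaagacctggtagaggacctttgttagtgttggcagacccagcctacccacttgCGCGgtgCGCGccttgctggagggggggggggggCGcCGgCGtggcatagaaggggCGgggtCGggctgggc
Nanog: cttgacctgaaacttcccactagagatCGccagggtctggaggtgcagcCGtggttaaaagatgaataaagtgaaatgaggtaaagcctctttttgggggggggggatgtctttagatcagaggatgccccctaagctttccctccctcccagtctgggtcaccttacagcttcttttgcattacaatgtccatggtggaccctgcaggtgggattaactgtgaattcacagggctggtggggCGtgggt
The Ooep window held 11 CpG sites at 57.2% GC and the Nanog window 3 at 52.0% GC, where the quartiles over the 32851 promoters of the table were 2, 6 and 16 CpG sites. The Ooep window held the GC box GGGCGG once, counting both strands, as did 32.7% of all windows. Neither window held an exact match to the octamer ATGCAAAT, which 1.60% of all windows held, or to the Sox motif CATTGTT, which 3.29% held. Near matches were not counted, and the Nanog window holds ttttgcattacaatg, which is close to both motifs read on the opposite strand. A match or its absence is a description of these letters and shows nothing of a factor's binding.

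The genes most like each Dppa gene were ranked by Pearson's r over the 12 means of a line, genotype and day, among the 2023 genes whose means had an SD of at least 0.5. These means share lines and arrays, so r is a description. Dppa2 was most like Bcat1 (r = 0.980), Gdf3 (0.975), Epp13 (0.975), Prune2 (0.973) and Tdgf1 (0.972), with Dppa4 at rank 7 (0.970) and Dppa5a at rank 9 (0.969). Dppa4 was most like Lefty2 (0.985), Zfp459 (0.984), Gdf3 (0.983), Dnajc6 (0.983) and Pcolce2 (0.981), with Dppa2 at rank 17. Dppa5a was most like Nanog (0.971), Dppa2 (0.969), Trap1a (0.966), Eps8 (0.964) and Pla2g1b (0.961).

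Dppa3 had other neighbours in this ranking. It was most like Cnpy1 (0.960), Rhd (0.942), Klf2, Ano9 and Zswim1 (0.939 each), with Dppa4 at rank 38, Dppa2 at 140 and Dppa5a at 172. In turn Dppa3 stood at rank 220 for Dppa2, 153 for Dppa4 and 254 for Dppa5a. Nanog, whose gene adjoins Dppa3, stood at rank 319 for Dppa3 (r = 0.738). Of the genes likest to Dppa3, Klf2 encodes a transcription factor of naive pluripotency. Bcat1, likest to Dppa2, encodes a branched-chain amino acid transaminase, and its KO minus WT difference on day 7 was 2.51. Cnpy1, likest to Dppa3, was at 2.12.

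The Dppa genes were set beside lists of genes they work or are expressed with. Of 22 pluripotency regulators, 1 was higher in KO on day 0 (Tbx3, 1.27), 8 on day 3 and 19 on day 7, against 0.461%, 0.667% and 3.08% of all genes, and 0 were lower on any of these days. The list holds the neighbours Nanog and Gdf3. The medians of the list were 0.12, 0.89 and 2.55. The largest day 7 differences were those of Nr0b1 (5.00), Zfp42 (4.10) and Fbxo15 (3.97), so that Dppa2 at 4.29 and Dppa5a at 4.27 were above the list's median and Dppa3 at 1.95 and Dppa4 at 2.25 below it. The 3 regulators not called on day 7 were Lin28a (-0.46), Sall4 (0.43) and Tbx3 (0.29). In WT 19 of the 22 fell between day 0 and day 7 (median -3.10), against 3.89% of all genes. In KO 2 fell (Klf4 by 1.23 and Utf1 by 1.08), against 0.421%. Dppa2, Dppa3, Dppa4 and Dppa5a were not called in KO over that time.

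Of 15 primordial germ cell genes, whose cells Dppa3 is a classical marker of and of which Prdm14 is also in the list before, 1 was higher in KO on day 0, 4 on day 3 and 7 on day 7, against the same shares of all genes as above, with medians of 0.21, 0.73 and 0.96. The largest day 7 differences were Rhox9 at 2.87, Dazl at 2.54 and Alpl at 2.43. In KO Rhox9 and Rhox6 rose between day 0 and day 7, by 1.56 and 1.23 (2.05% of all genes rose), whereas the difference of Dppa3 was -0.48. The KO arrays of these days overlapped for both Rhox genes. Rhox9 ran from 8.35 to 9.74 on day 0 and from 9.65 to 11.94 on day 7. For Rhox6 the ranges were 8.30 to 9.24 and 8.87 to 11.35. In WT 7 of the 15 fell over that time, against 3.89% of all genes, the largest being Ddx4 at -2.71.

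Of 12 measured genes of DNA methylation and its protection, in which DPPA3 acts, 0 were called in KO against WT on day 0. On day 3, 3 were higher, against 0.667% of all genes (Dnmt3l at 2.08, Zfp57 at 1.17 and Tet2 at 1.11), and on day 7, 3 were, against 3.08% (Dnmt3l at 4.23, Tet1 at 1.18 and Zfp57 at 1.02). Dnmt3l encodes a cofactor of the de novo methyltransferases. Uhrf1, whose protein DPPA3 is known to displace from chromatin, differed by -0.01, 0.18 and 0.15 on days 0, 3 and 7 and was not called.

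A list of KH-domain and oocyte-complex genes had 7 measured, of which only some are related to Dppa5a by domain or by place. Of the 7, Khdc3 was higher in KO on day 0 (1.99) and 0 were called on day 3. On day 7 Ooep (2.67) and Khdc3 (1.40) were higher. The all-gene shares were 0.461% on day 0 and 3.08% on day 7. Khdc3 also fell in KO by 1.38 between day 0 and day 7, which Ooep and Dppa5a did not. Of 27 genes listed for the 2-cell-like state, which DPPA2 and DPPA4 are known to switch on through Dux, 11 were measured. Of these, 0 were called on days 0, 3 or 7, where 0.461%, 0.667% and 3.08% of all genes were called higher. The Dux and Zscan4 genes were not among those measured by a probe set with a single symbol. The largest difference in this list was that of Usp17la on day 0 (1.00, not called) and that of Zfp809 on day 7 (0.95, adjusted p = 4.3e-04, under 2-fold). Whether Zfp809 belongs to the 2-cell-like state was not checked. The 2 KO clones were unlike in this list, which the pooled comparison does not show. On day 0 the mean of the 11 genes was 6.40 and 6.81 on the E14 KO arrays, 5.78 and 5.64 in J1 KO, and 5.59 to 5.77 over the 4 WT arrays. On day 7 it was 6.04 and 6.73 in E14 KO, 5.67 and 5.77 in J1 KO, and 5.50 to 5.76 in WT. E14 KO thus lay above all other arrays on both days. Dppa2 and Dppa4 were not called between the KO clones, and their relation to this list was not tested. These list means were not tested.

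**Figure D5:**
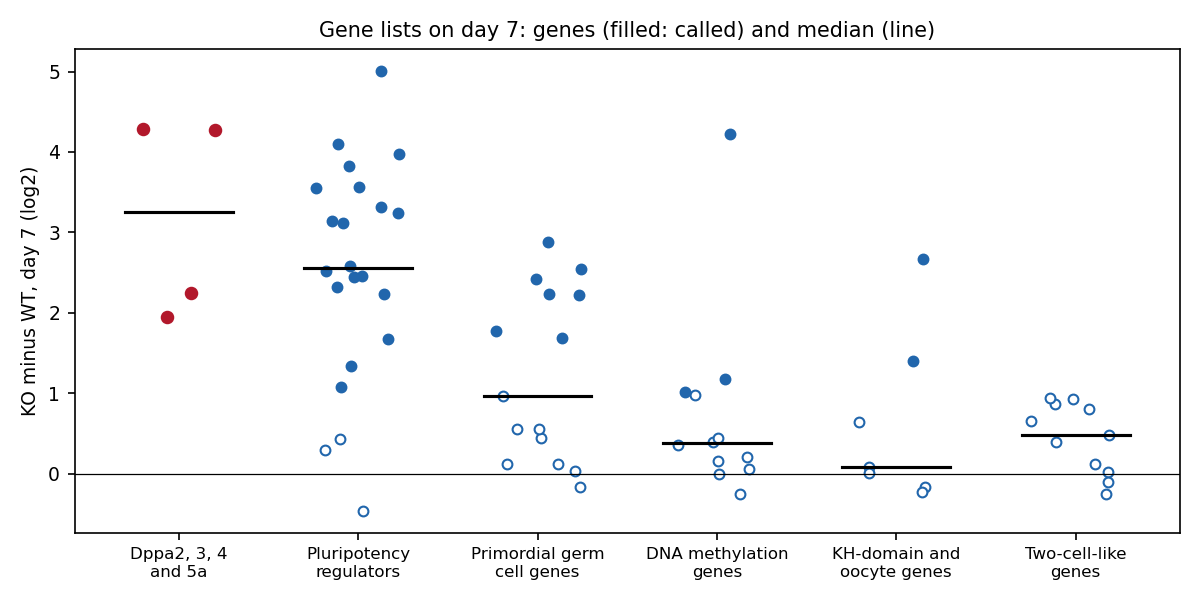
KO minus WT on day 7 (log2) of Dppa2, Dppa3, Dppa4 and Dppa5a and of each measured gene of the other lists; filled points were called and the line is the list's median. The pluripotency regulators have a median of 2.55, the Dppa genes one of 3.26, and the 2-cell-like genes have 0 of 11 called.

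Markers of other cell types also differed between the genotypes. The mean of the 6 ESC markers was 10.83 to 11.42 on the day 7 KO arrays and 7.69 to 8.43 on the day 7 WT arrays, so that it separated the arrays as the Dppa genes did. The mean of 6 measured primitive blood markers was 5.77 to 6.49 in KO and 9.88 to 11.40 in WT on day 7, and 6 of 6 were lower in KO, against 1.28% of all genes. The mean of 6 germ cell markers was 7.89 to 8.31 in KO and 5.92 to 5.99 in WT on day 7. Of these, 4 of 6 were higher in KO (Mael, Dazl, Sycp3 and Ddx4), against 3.08% of all genes, and the median of the list was 2.24. In WT 5 of 6 fell between day 0 and day 7, against 3.89% of all genes. Dazl, Ddx4, Prdm1 and Nanos3 are also among the primordial germ cell genes. The mean of 12 feeder fibroblast markers was 7.87 to 9.02 in KO and 7.36 to 7.72 in WT on day 0. On that day 3 of 12 were higher in KO, against 0.461% of all genes. On day 7 the mean was 7.79 to 8.32 in KO and 7.76 to 9.30 in WT. There 3 of 12 were lower in KO, against 1.28% of all genes. Between day 0 and day 7, 7 of 12 rose in WT and 2 fell, against 5.09% and 3.89% of all genes. In KO 1 rose and 3 fell, against 2.05% and 0.421%. Embryoid bodies formed from cells depleted of fibroblasts, and which cells gave the day 7 values was not tested. The mean of 10 visceral endoderm markers overlapped on day 7, averaging 8.57 in KO and 8.57 in WT. The single genes differed in both directions, from -1.57 to 2.70. Of the 10, 1 was higher in KO and 0 were lower, against 3.08% and 1.28% of all genes. Cubn averaged 9.84 in KO and 7.14 in WT on day 7. The part of these cell types in the differences of the Dppa genes was not tested.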

How the data were processed

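The authors deposited 1 log2 expression value per probe set and array. Per the submitters' processing notes, RMA and Affymetrix Power Tools were used. Tool versions and the genome build were not given in the sources used here. RMA corrects background, quantile-normalizes arrays and summarises probes, so differences near background are compressed and a change of total RNA is removed. Values ran from 2.08 to 14.4. Of 35556 probe sets, 21789 had 1 gene symbol (21698 matched a RefSeq gene by identifier), 1621 had several, 12146 were not listed. A gene's probe set of highest mean over all arrays was used (999 genes had more than 1), which left 19938 genes.

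In R 4.3.3, limma 3.58.1 (statmod 1.5.0) fitted 6 genotype-by-day means over 24 arrays with a random block for the clone (consensus correlation 0.161, 18 residual degrees of freedom). The contrast of J1 KO with J1 WT and contrasts of the lines that share a genotype used 12 line-by-genotype-by-day means (12 residual degrees of freedom). The model of 6 means was tested on simulated data, for KO minus WT on day 7 only and without a simulated clone effect. The model of 12 means was not tested in this way. The number of arrays limits the precision.

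The Dppa genes and the gene lists were chosen with earlier results of these data known, and the list counts are descriptions. Named by rule were all Dppa genes, the 5 likest genes (symbols of predicted genes passed over), the 5 measured neighbours on either side, and of each list up to 3 called genes with the largest change in a direction. Others were named after their values were seen, to account for those not called. Alternatives were no clone block, averaged arrays, quantile normalization, the other probe set, no fold minimum, a replicate block, and leaving out a clone or an array.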

Additional observations from a re-analysis of the deposited data

Results flagged for a closer look

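By limma's interaction term, KO and WT differed in the change over days 0 to 7 for Dppa2 (3.80), Dppa3 (2.16), Dppa4 (2.15) and Dppa5a (3.64). These values share the WT day 7 arrays with the other comparisons.

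Of 24 groups of 4 arrays (a gene, a genotype and a day), 2 held an array that lay apart by Dixon's test at the 95% level. Chance gives about 1 in 20 such groups. They were Dppa2 in WT on day 7, where V6.5 replicate 1 lay lowest at 7.36, and Dppa4 in KO on day 7, where E14 replicate 2 lay lowest at 8.95. Without either array all 4 genes were still called higher in KO on day 7.

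The change of Dppa1 from day 3 to day 7 was larger in E14 KO than in J1 KO by 2.22 (SE 0.216, adjusted p = 3.7e-05 by limma), with 0.115% of all genes (23) called. This comparison was added after the values were seen. In the same comparison Dppa2, Dppa3, Dppa4 and Dppa5a differed by -0.22, -0.34, -0.13 and -0.04, and none was called.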

How the results depend on the processing

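In each alternative run, 4 of 4 genes stayed called in KO against WT on day 7 and in WT between day 0 and day 7. The WT count of falls by day 3 (2) was 0 with the arrays of a line and day averaged and 1 without the WT J1 clone. The day 3 count in KO against WT (1) was 0 with averaged arrays, 0 without the E14 KO clone and 2 without the WT V6.5 clone (Dppa2 and Dppa5a). The KO count between day 0 and day 7 (0) was 1 (Dppa4) with no fold minimum. Averaging leaves fewer residual degrees of freedom.

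Leaving out 1 array gave 1 to 2 falls by day 3 in WT, 0 to 1 calls for E14 against J1 KO on day 0 and 0 to 0 on day 7 (1 with all arrays), 0 to 3 for J1 KO against J1 WT on day 3, and 0 to 1 for V6.5 against J1 WT on days 3 and 7. The other counts kept their value. With averaged arrays Dppa3 was not called in WT by day 3 (adjusted p = 0.21), from day 3 to day 7 (0.11) or in the day 7 change between genotypes (0.19), and Dppa5a was not called on day 3 (0.055 between genotypes, 0.058 in WT). With the other probe set the clone differences of Dppa3 were -1.01 on day 0 (adjusted p = 0.078) and -1.02 on day 7 (0.055).

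Whether replicate numbers pair the samples could not be settled. The difference between replicates 1 and 2 correlated between groups at -0.40 to 0.47 (median 0.06), with 30 of 66 pairs of groups above 0.1. With the replicate block 4 of 4 genes were called on day 7 and no count of called Dppa genes changed. The count of all genes called moved more. With no fold minimum it was 3250 against 870 for KO minus WT on day 7. With averaged arrays it was 20 against 110 for KO minus WT on day 0, 39 against 151 on day 3, 227 against 407 for WT by day 3, 69 against 233 and 191 against 399 for KO before and after day 3, and 229 against 673 and 0 against 10 for the interactions on days 7 and 3. With a clone left out it ran from 47 to 272 on day 0 and from 53 to 247 on day 3 for KO minus WT, and from 313 to 1013 for the day 7 interaction.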
